A study of Homo sapiens with 34 samples.

Results

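The subject is the 1q21 stretch of human chromosome 1, chr1:143000000-150000000 on hg38, which begins beside the heterochromatin block of the long arm and is known for segmental duplications. Every H3K9me peak with its midpoint between these bounds was taken from 34 deposited peak lists, which gave 949 of the 1034291 peaks on the autosomes and the X chromosome. Of these, 581 came from COLO320 DM and 368 from PC3 DM libraries. The label was only partly borne out by the positions of the peaks. Of the 949, 477 lay in 1 run, PRKAB2 to GJA5, and few lay in the duplicated gene families. The run spans listed single-copy genes, but most of its peaks lay outside them.

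The peaks came from CUT&Tag, which cuts and tags chromatin where an antibody is bound, here with an antibody that the labels name anti-H3K9me without a degree of methylation. COLO320 DM is a colorectal and PC3 DM a prostatic adenocarcinoma line, both known for MYC on extrachromosomal DNA, and the treatment notes speak of lines derived from or based on them without saying whether these were clones. Cells received 700 ng of an sgRNA plasmid and were taken after 3 days, at 50000 nuclei per library. COLO320 DM had 3 libraries each for the plasmids ecSE1, ecSE2, ecSE3, ecSE4 and ecSEcombo and 3 for the vector; PC3 DM had 3 each for ecSE1, ecSE2, ecSE6 and ecSEcombo, 2 for ecSE7 and 2 for the vector. The sequences targeted and the content of the combination are not given in the labels.

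Methylation of lysine 9 on histone H3 is found over silent chromatin: its higher degrees mark heterochromatin beside centromeres, repeats and some gene families, while a single methyl group is also found in active gene bodies. The 1q21 bands hold copies of NBPF genes, which encode proteins with many tandem Olduvai domains, and of NOTCH2NL genes, human-specific relatives of NOTCH2 that act on cortical progenitors. Reads from near-identical copies fit several places in the genome. The sources used here do not say what was done with such reads, so a lack of mark and a lack of uniquely placed reads cannot be told apart in these families.

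The copies can be seen in the promoters of the RefSeq table on GRCh38.p14, which holds 135 promoters in the stretch. NBPF10 at chr1:146144805-146145054 and NBPF14 at chr1:148595718-148595967, both on the minus strand and 2.45 Mb apart, are shown with the 250 bases before each start because they stand for this problem. Over the 215 bases in which they align, 214 are identical. Capitals mark the bases with no identical partner in the other promoter: 1 substitution and the ends outside the aligned bases.

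NBPF10: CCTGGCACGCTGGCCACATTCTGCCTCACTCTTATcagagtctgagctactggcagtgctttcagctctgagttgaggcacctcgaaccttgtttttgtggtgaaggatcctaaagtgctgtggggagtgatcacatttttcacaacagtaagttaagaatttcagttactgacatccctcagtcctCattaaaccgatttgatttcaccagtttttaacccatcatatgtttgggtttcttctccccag

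NBPF14: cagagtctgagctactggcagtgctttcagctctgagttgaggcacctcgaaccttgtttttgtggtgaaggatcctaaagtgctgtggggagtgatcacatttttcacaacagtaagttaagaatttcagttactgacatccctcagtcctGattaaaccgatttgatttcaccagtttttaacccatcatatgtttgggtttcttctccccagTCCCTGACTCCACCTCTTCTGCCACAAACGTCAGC

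Each promoter of 300 bases was cut into 276 windows of 25 bases, and a window was counted as copied where it stood, on either strand, in another promoter of the stretch that did not overlap it. Copied windows were found in 7 of 8 NBPF promoters, with a median of 71.9% of windows, and in 7 of 11 histone promoters. The list of other duplicated families had them in only 6 of 19 promoters. None of the 26 promoters of the single-copy genes of 1q21 held one. Only promoters were compared, so copies elsewhere in the genome were not counted.

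Peaks touched 4 of the 135 promoters, and none of the NBPF promoters. LOC105371288, an uncharacterised long non-coding RNA gene, had the most, with peaks over the 300 bases of its promoter in 3 COLO320 DM and 3 PC3 DM libraries. The promoter of RBM8A was touched in 1 COLO320 DM library. The promoter of PRKAB2 and the first promoter of CHD1L were each touched in 1 PC3 DM library, and they overlap, so 1 peak may count for both. The 250 bases before the start of LOC105371288, chr1:145429084-145429333 on the plus strand, are shown as the most often covered promoter, with capitals for the 188 bases that lay under the peaks of at least 3 libraries; 5 libraries reached these 250 bases.

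LOC105371288: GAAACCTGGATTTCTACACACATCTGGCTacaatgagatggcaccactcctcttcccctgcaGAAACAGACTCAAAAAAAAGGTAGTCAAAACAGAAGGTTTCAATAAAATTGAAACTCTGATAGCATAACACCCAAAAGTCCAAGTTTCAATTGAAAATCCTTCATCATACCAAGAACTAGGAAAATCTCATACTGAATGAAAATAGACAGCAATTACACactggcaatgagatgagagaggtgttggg

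CHD1L, which encodes a chromatin remodeller of the SNF family, had a site within its gene bounds with a peak in all 18 COLO320 DM libraries, and in 1 of 16 from PC3 DM. Its first promoter had a peak in 1 library. No peak touched its later promoters, chr1:147242434-147242733 and chr1:147242890-147243189, which lie past that site. The 250 bases of the first promoter, at chr1:147172497-147172746 on the plus strand, are shown for contrast, with each CG in capitals. It held 30 CG dinucleotides, against a median of 14 over the 135 promoters, of which 90.4% held at least 1. No 25-base window of it recurred in another promoter of the stretch.

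CHD1L: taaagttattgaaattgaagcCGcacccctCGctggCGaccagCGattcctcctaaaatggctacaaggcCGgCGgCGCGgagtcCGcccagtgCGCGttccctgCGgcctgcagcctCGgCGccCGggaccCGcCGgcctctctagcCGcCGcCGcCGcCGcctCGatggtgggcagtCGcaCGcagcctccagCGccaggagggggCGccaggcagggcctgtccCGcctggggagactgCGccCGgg

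The first comparison asked how much of each peak list lay in the stretch in the 2 lines. The stretch took about 2 times as large a share of the list in COLO320 DM as in PC3 DM. It held 13 to 122 peaks per COLO320 DM library, median 24.5, and 6 to 49 per PC3 DM library, median 18. As a share of the list this was 0.136% ± 0.0175 in COLO320 DM (SD, n = 18), from 0.0974% to 0.170%, and 0.0669% ± 0.0121 in PC3 DM (SD, n = 16), from 0.0479% to 0.0875%. The shares of the lines did not overlap. The difference of 0.0691 percentage points was larger than the spread between libraries (permutation test, two-sided, p = 1e-05, the smallest that the resamples can give). These shares include a strong intergenic site, described below, that was named for its strength in COLO320 DM. Without that site the difference was 0.06485 points (permutation test, p = 1e-05). The length under peaks showed the same order, with 12849 ± 5709 bp in COLO320 DM (SD, n = 18) and 6240.5 ± 2767 bp in PC3 DM (SD, n = 16), or 0.141% and 0.0648% of all covered length.

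The local background differed along with it. Each peak's fold and p-value give whole fragments at its summit and the local background that the fold was taken against. The median background under stretch peaks was 2.06 ± 0.68 times that of the rest of chromosome 1 in COLO320 DM (SD, n = 18, from 1.27 to 3.66) and 1.16 ± 0.34 times in PC3 DM (SD, n = 16, from 0.915 to 2.0). Some medians stood at the lowest background of a list on chromosome 1, which limits the ratio. In PC3 DM ecSE1 replicate 3 this was the stretch median, at 0.218 fragments. In COLO320 DM ecSE1 replicate 2 it was the median of the rest, at 0.720. Copy number and depth were not measured here, and the part of the background in the difference between the lines was not tested. The vector libraries alone gave a difference of 0.0715 points, for which 3 against 2 libraries can reach no p below 0.1 (exact permutation p = 0.1).

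Set against the rest of chromosome 1, the stretch was poorer in peaks in both lines. COLO320 DM libraries held 4.61 ± 3.40 peaks per Mb in the stretch and 6.83 ± 6.99 in the rest (SD, n = 18). PC3 DM libraries held 3.29 ± 1.80 and 10.3 ± 6.22 per Mb (SD, n = 16). The log2 ratio within a library was -0.46 ± 0.20 in COLO320 DM and -1.64 ± 0.25 in PC3 DM, negative in 18 of 18 and in 16 of 16 libraries (sign-flip permutation tests, two-sided, p = 2e-05 and 3e-05). Without the strong intergenic site the ratios were -0.548 in COLO320 DM and -1.716 in PC3 DM (sign-flip permutation tests, p = 2e-05 and 3e-05). With the site, the lines themselves differed by 1.17 on the log2 scale (permutation test, two-sided, p = 1e-05). With every list reduced to its best 9385 peaks, the COLO320 DM ratio was -0.043 and did not pass (permutation p = 0.503), while the PC3 DM ratio was -1.59 (permutation p = 3e-05).

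**Figure D1:**
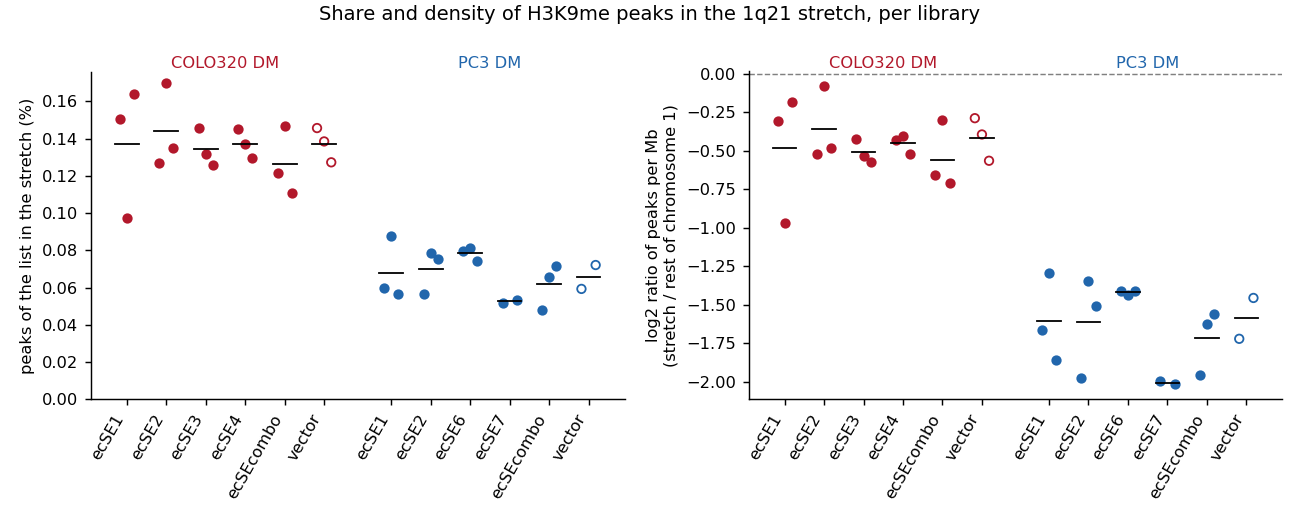
Share of each list's peaks that lie in the stretch (left, percent) and log2 ratio of peaks per Mb in the stretch over the rest of chromosome 1 (right), 1 point per library, by line and plasmid, with bars at group means and open points for vector. COLO320 DM libraries lie between 0.0974% and 0.170% and PC3 DM libraries between 0.0479% and 0.0875%, and all 34 log2 ratios lie below 0.

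Stretch peaks ranked higher within their lists than other chromosome 1 peaks in COLO320 DM. Peaks were ranked by q-value and then fold, and the median percentile in the stretch was 14.3 ± 7.66 points above that of the rest of chromosome 1, higher in 18 of 18 libraries, from 0.0944 to 30.3 points (sign-flip permutation test, two-sided, p = 2e-05). This includes the strong intergenic site described below, which was named for its strength in COLO320 DM. Without that site the difference was 12.3 points (sign-flip permutation test, p = 4e-05). In PC3 DM, with the site, the median percentile was 3.43 ± 13.0 points above, in 11 of 16 libraries, from -19.3 to 30.4 points, which did not pass (permutation p = 0.306). The fold gave a different picture in COLO320 DM: the median was 5.22 ± 0.34 in the stretch and 5.57 ± 0.17 in the rest of chromosome 1 (SD, n = 18). In PC3 DM it was 5.31 ± 0.69 and 5.31 ± 0.24 (SD, n = 16).

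Peaks were very uneven along the 7 Mb. The first 500 kb, chr1:143000001-143500000, held no peak in any library, while chr1:147000001-147500000 held 431 and the next 500 kb 167. The lowest peak inside the bounds lay 573410 bp above the lower one, with a fold of 10.1, and the nearest outside lay 17.9 Mb below it, with a fold of 3.96. At the upper bound the nearest peaks lay 7.75 kb inside, with a fold of 5.33, and 6.71 kb outside, with a fold of 5.02. The lower bound thus falls in a wide gap without peaks, and the upper one cuts through ordinary peak density.

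More peaks lay in PRKAB2 to GJA5, chr1:147155106-147773351, than in the rest of the stretch outside the gene runs. This run of single-copy genes was bounded after the values were seen and is therefore only described. It takes 8.83% of the length and held 477 peaks, or 50.3%. Most of these lay outside the listed genes. All listed single-copy genes of 1q21.1, with 2 kb on each side, held 79 peaks in COLO320 DM and 79 in PC3 DM. Its density was 27.4 ± 16.7 peaks per Mb in COLO320 DM (SD, n = 18) and 17.4 ± 8.34 in PC3 DM (SD, n = 16). Outside this and the other runs, CD160 to HJV and BOLA1 to the end, the density was 2.29 ± 1.95 per Mb in COLO320 DM and 1.54 ± 1.17 in PC3 DM. The run was denser than that remainder in 18 of 18 and in 16 of 16 libraries. It was the densest of the 4 segments in 17 COLO320 DM and 14 PC3 DM libraries.

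The run also had the highest local background of the 4 segments in both lines. Per-library medians under its peaks averaged 6.10 ± 2.35 fragments in COLO320 DM, against 1.58 ± 0.51 in the remainder (SD, n = 18). In PC3 DM they averaged 1.14 ± 1.36 and 0.428 ± 0.253 (SD, n = 16). The folds ran the other way, at 4.78 ± 0.37 in the run and 6.09 ± 0.55 in the remainder in COLO320 DM, and at 5.16 ± 0.58 and 6.20 ± 1.63 in PC3 DM. Copy number was not measured, and the part of the background in these counts was not tested. A second run, CD160 to HJV at chr1:145719499-146021735, held 19 COLO320 DM and 43 PC3 DM peaks, or 3.49 ± 4.88 and 8.89 ± 6.80 per Mb.

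**Figure D2:**
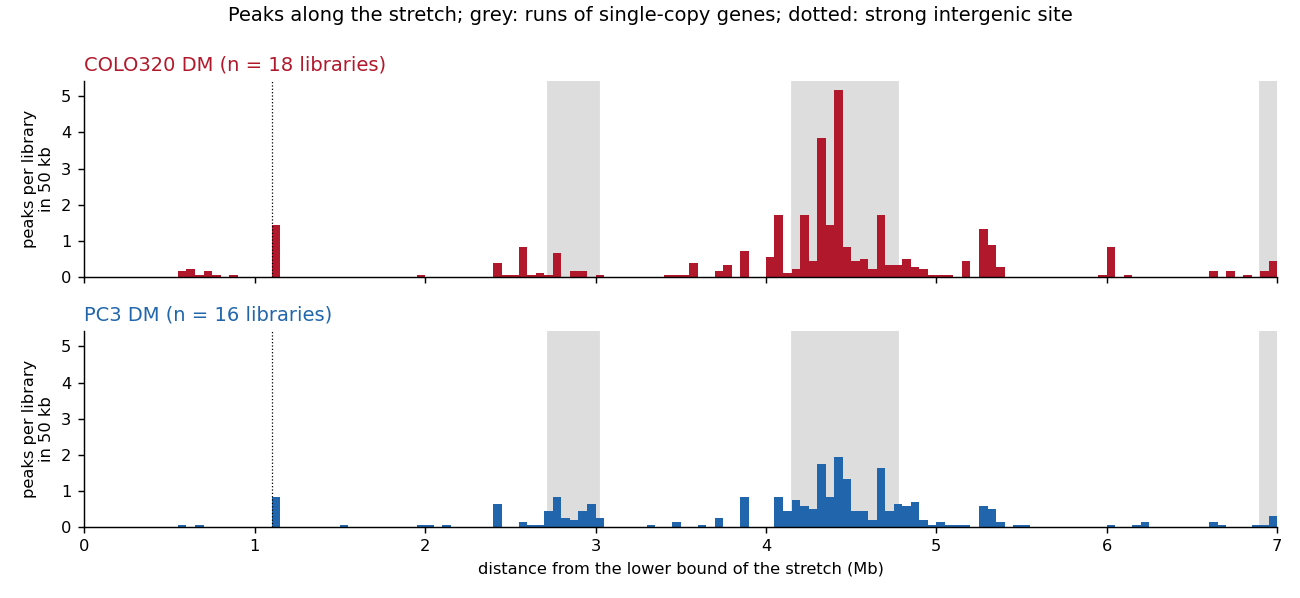
Mean number of peaks per library in steps of 50 kb along the stretch, against distance from its lower bound in Mb, for COLO320 DM (above, n = 18) and PC3 DM (below, n = 16). Grey bands are the runs CD160 to HJV, PRKAB2 to GJA5 and BOLA1 to the end, the dotted line is the strong intergenic site, and both lines peak in the second band, which held 477 of 949 peaks.

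The gene families that give the region its name held few peaks. Of 11 NBPF genes with 2 kb on each side, 7 had no peak in any library: NBPF15, NBPF20, NBPF10, NBPF12, NBPF14, NBPF9 and NBPF19. Most genes of the stretch had none either: 189 of all 286, and 41 of the 72 protein-coding genes. The NBPF count thus stood near these shares and does not by itself set the family apart. The other 4 had peaks in few libraries: the pseudogenes NBPF17P in 3 COLO320 DM libraries, NBPF25P in 1 COLO320 DM library and NBPF13P in 1 COLO320 DM and 3 PC3 DM libraries, and NBPF11 in 1 PC3 DM library. The 3 NOTCH2NL genes and the 6 PPIAL4 genes, which encode cyclophilin A-like isomerases, had none. The histone cluster had a peak over 2 of 13 genes, H2BC19P and H4C15, both in COLO320 DM ecSE1 replicate 2. Other duplicated families had a peak over 8 of 14 genes, most often HYDIN2, a pseudogene copied from another chromosome, in 8 COLO320 DM and 5 PC3 DM libraries. Not all of this list showed copies: ANKRD34A lies in the run CD160 to HJV, and its promoter held no copied window.

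Single-copy genes of 1q21.1 were touched more often, and 17 of 18 had a peak in at least 1 library. The exception was TXNIP, the thioredoxin-interacting protein. Per Mb of gene with flanks, they held 8.04 ± 8.60 peaks in COLO320 DM (SD, n = 18) and 9.05 ± 6.00 in PC3 DM (SD, n = 16). For the NBPF genes, over 696 kb, these densities were 0.479 ± 1.39 and 0.359 ± 0.642 per Mb, and 15 of the 18 COLO320 DM libraries and 12 of the 16 from PC3 DM had no peak there. The 5 single-copy genes of 1q21.2, over 170.6 kb, held 5.21 ± 10.2 and 3.30 ± 4.77 per Mb. These genes reach past the upper bound of the stretch, and peaks beyond the bound are counted in their densities. COLO320 DM ecSE1 replicate 2 weighed heavily, with 4 of the 6 NBPF peaks of its line: without the 2 lists of over 100000 peaks, NBPF genes held 0.169 per Mb in COLO320 DM, against 0.383 per Mb in PC3 DM, and the 1q21.2 genes 3.10 and 3.52, so the order of the lines turned in both lists. In the run BOLA1 to the end, which stops at the bound, the order did not turn without these lists. It held 4.10 per Mb in COLO320 DM and 3.98 in PC3 DM. The lines were not tested against each other here. Over all 286 genes of the table in the stretch, 97 had a peak in at least 1 library, and the median gene had none.

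**Figure D3:**
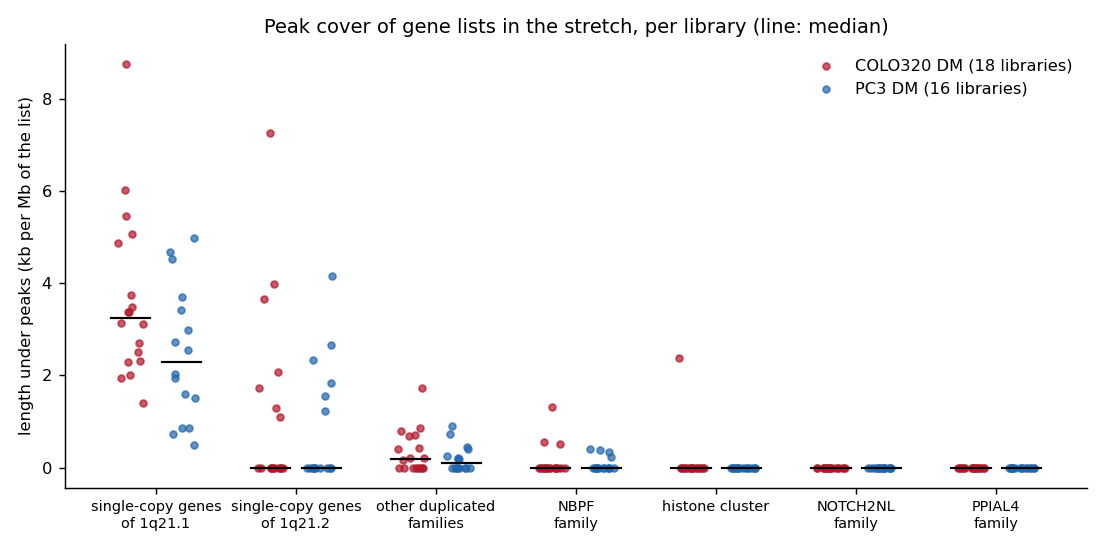
Length under peaks in kb per Mb of each gene list (genes with 2 kb on each side), 1 point per library, COLO320 DM left and PC3 DM right in each pair, with bars at medians. The genes of 1q21.2 reach past the upper bound of the stretch and are shown whole. Medians are above 0 only for the single-copy genes of 1q21.1 and the other duplicated families, and all points are at 0 for NOTCH2NL and PPIAL4.

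Presence of a peak in each protein-coding gene was compared between the lines over the whole genome, and 17 genes of the stretch had enough libraries to be tested. None was called (Fisher's exact test, Benjamini-Hochberg adjusted p under 0.05), and 3 had an unadjusted p under 0.05. Over the genome 6.99% of tested genes were called, 1.25% for COLO320 DM and 5.74% for PC3 DM. CHD1L was covered in all 18 COLO320 DM libraries and in 12 of 16 from PC3 DM (exact test, adjusted p = 0.157), and RNF115, a ubiquitin ligase, in 9 and 11 (exact test, adjusted p = 0.518). These were the 2 recurrent protein-coding genes among 72, where recurrent means a peak in at least 9 COLO320 DM or at least 8 PC3 DM libraries.

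The amount under CHD1L peaks differed more than their presence. COLO320 DM libraries had 1404 ± 453 bp of CHD1L under peaks (SD, n = 18) and PC3 DM libraries 313 ± 282 bp (SD, n = 16). With at least 500 bp under peaks required, CHD1L was called for COLO320 DM (exact test, adjusted p = 7.89e-05), as it was with q-values of 1e-05 or less (adjusted p = 0.017) and in lists of equal length (adjusted p = 0.000549). FMO5, a flavin monooxygenase gene that lies inside CHD1L's bounds, was covered in 4 and 6 libraries.

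In the other direction stood PRKAB2 and POLR3GL, neither of which passed. PRKAB2, a regulatory beta subunit of the AMP-activated kinase, was covered in none of the 18 COLO320 DM libraries and in 6 of 16 from PC3 DM (exact test, adjusted p = 0.0601). Without COLO320 DM ecSE1 replicate 2, which held the longest list, it passed (exact test, adjusted p = 0.0460). POLR3GL, a subunit of RNA polymerase III, had 0 and 5 (exact test, adjusted p = 0.0992). BCL9, a cofactor of beta-catenin, had 5 and 6, ACP6, a lysophosphatidic acid phosphatase, 4 and 6, and GJA5, a gap junction gene, 1 and 1.

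The gene covered in the most libraries was LINC00624, a long non-coding RNA gene at chr1:147382192-147517875. It had peaks in all 18 COLO320 DM libraries and in 15 of 16 from PC3 DM, over 3081 ± 1092 bp and 1050 ± 740 bp (SD, n = 18 and 16). Inside it lies OR13Z2P, an olfactory receptor pseudogene at chr1:147445479-147446234, which with its flanks had a peak in 18 and 13 libraries. Outside the PRKAB2 to GJA5 run, LOC105371225 was covered in 15 COLO320 DM and 7 PC3 DM libraries, LOC105371288 in 7 and 9, and PDE4DIPP5, a pseudogene of the centrosomal protein gene PDE4DIP, in 12 and 2. These genes were not in the protein-coding test.

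The strong intergenic site lay at chr1:144100001-144105000, in no gene of the table and 13648 bp from the nearest, the orphan immunoglobulin pseudogene IGKV1OR1-1. It was named for its strength in COLO320 DM, so the difference between the lines is described and not tested. All 18 COLO320 DM lists and 13 of 16 from PC3 DM had a peak there, and the 3 PC3 DM libraries without one were vector replicate 2, ecSE2 replicate 1 and ecSE6 replicate 1. It was the best-ranked peak of the stretch in 18 COLO320 DM and 8 PC3 DM libraries, and stood among the 100 best of the whole list in 17 and 2.

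Summits lay close together in both lines. They lay at chr1:144103681-144103737 in COLO320 DM, median 144103730, and at chr1:144103681-144103871 in PC3 DM, median 144103729. The COLO320 DM peaks were wider, at 746 ± 273 bp covered (SD, n = 18), and 8 lists split the site into 2 peaks. All 8 were from perturbed libraries, as were 15 of the 18. Vector replicate 1 reached the same upper part with 1 unsplit peak, chr1:144103538-144104636, so the split does not mean that this part was missing in the vector. In PC3 DM, the 13 libraries with a peak had 295 ± 61.5 bp covered and none was split.

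Folds overlapped between the lines, while fragments and background did not. Summits held 83 to 179 fragments in COLO320 DM, median 124.5, and 15 to 51 in PC3 DM, median 20, without overlap. The local background ran from 6.05 to 14.8 fragments in COLO320 DM, median 11.7, and from 0.568 to 2.40 in PC3 DM, median 1.11, again without overlap. Fold was 8.14 to 13.7 in COLO320 DM, median 10.4, and 6.69 to 15.3 in PC3 DM, median 10.8, with the ranges overlapping. These values are not scaled for depth or copy number. A higher background in COLO320 DM was not particular to the site. The lowest background of a list on chromosome 1 was 0.501 to 0.872 fragments in COLO320 DM and 0.164 to 0.405 in PC3 DM. Median backgrounds in the rest of chromosome 1 were 0.688 to 2.17 and 0.195 to 0.858, with a small overlap.

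Among plasmids in COLO320 DM, the site kept a peak in all 3 libraries of every group. Its fold was 8.14, 10.3 and 10.6 for ecSE1, 8.66, 10.0 and 11.2 for ecSE2, 9.71, 10.1 and 11.7 for ecSE3, 8.498, 10.0 and 10.5 for ecSE4, 9.24, 11.1 and 12.3 for ecSEcombo, and 10.8, 13.3 and 13.7 for the vector. The highest 2 folds were thus from vector libraries, and the other vector library lay within the perturbed range. Fragments were 83 to 165 in the 15 perturbed and 119, 143 and 179 in the 3 vector libraries, which overlap. Folds belong to 1 list each and were not tested between lists. In PC3 DM, vector replicate 1 had the highest fold and count, 15.3 and 51 fragments, and vector replicate 2 had no peak.

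Recurrence was measured in bins of 5 kb. Of 1400 bins, 289 held a peak in some library: 151 in 1 library, 54 in 2 and 84 in 3 or more. Recurrent bins numbered 19, which is 6.57% of the 289, where 3.34% of all bins with a peak in the genome were recurrent. The 19 include the strong intergenic site, which was named for its strength, and without it 18 of 288, or 6.25%, were recurrent. In single lines, 9.47% of 190 bins were recurrent in COLO320 DM (genome 5%) and 3.7% of 189 in PC3 DM (genome 1.67%), and 2.08% in both (genome 0.698%). Of the 19, 13 lay in PRKAB2 to GJA5 and 9 touched no gene of the table.

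Between the lines, 83 bins other than the strong intergenic site could be tested, and 9 were called (Fisher's exact test, adjusted over the genome, p under 0.05), or 10.8%. All 9 had a peak more often in COLO320 DM. Over the genome 3.47% of bins were called, 2.88% for COLO320 DM and 0.598% for PC3 DM. The count depends on the bin: with bins of 10 kb, 3 were called. Neighbouring bins can share 1 peak, so the 9 are not independent.

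The clearest was chr1:147230001-147235000 in CHD1L, which was covered in all 18 COLO320 DM libraries and in 1 of 16 from PC3 DM (exact test, adjusted p = 4.33e-06). COLO320 DM covered 1000 ± 144 bp of it (SD, n = 18), with 24 to 79 fragments at the summit, median 49, over a background of 2.98 to 9.11. The PC3 DM peak had 4 fragments. At chr1:147295001-147300000, 14 and 1 libraries had a peak (exact test, adjusted p = 0.00211). CHD1L ends in this bin, but the COLO320 DM summits lay at chr1:147299952-147300383, median 147300242, past the gene and mostly in the next bin, so the call rests on peaks that reach across from there. Further on, chr1:147305001-147310000, held no gene and had 17 and 3 (exact test, adjusted p = 0.000916), while chr1:147300001-147305000 between them, with 15 and 10, did not pass (adjusted p = 0.567) except in lists of equal length (adjusted p = 0.0296).

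Called bins in LINC00624 were chr1:147410001-147415000, in 16 and 3 libraries (exact test, adjusted p = 0.00451), and chr1:147425001-147430000, in 13 and 2 (adjusted p = 0.0229). The bins over OR13Z2P and just before it had a peak in 17 and 8 and in 17 and 9 libraries and did not pass (exact test, adjusted p = 0.103 and 0.174). Both passed with 500 bp required (exact test, adjusted p = 0.000194 and 9.72e-05), with q-values of 1e-05 or less (adjusted p = 0.0241 each) and in lists of equal length (adjusted p = 0.000743 and 0.0158). The first also passed without COLO320 DM vector replicate 1 (exact test, adjusted p = 0.0286). The best-ranked stretch peak apart from the strong intergenic site lay over OR13Z2P's bin, with 128 fragments at the highest and rank 95 at the best in COLO320 DM.

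The other called bins lay elsewhere. PDE4DIPP5 held chr1:145555001-145560000, in 12 and 0 libraries, and chr1:149040001-149045000, 6985 bp from its parent PDE4DIP, was likewise in 12 and 0 (exact test, adjusted p = 0.00261 each). chr1:147060001-147065000, near the pseudogene IGF2BP2P2, had 14 and 3 (exact test, adjusted p = 0.0448), and chr1:147680001-147685000, 4256 bp from the nearest gene of the table, RN7SL261P, 16 and 5 (adjusted p = 0.0343). The last pair missed the threshold when the 2 lists of over 100000 peaks were left out (exact test, adjusted p = 0.0645 and 0.0508). With 500 bp required, 147295001, 147410001, 147425001 and 149040001 lost the call (exact test, adjusted p = 0.313, 0.0576, 0.0576 and 0.185), as did 145555001 in lists of equal length (adjusted p = 0.376) and 147425001 without the combination (adjusted p = 0.0503).

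**Figure D4:**
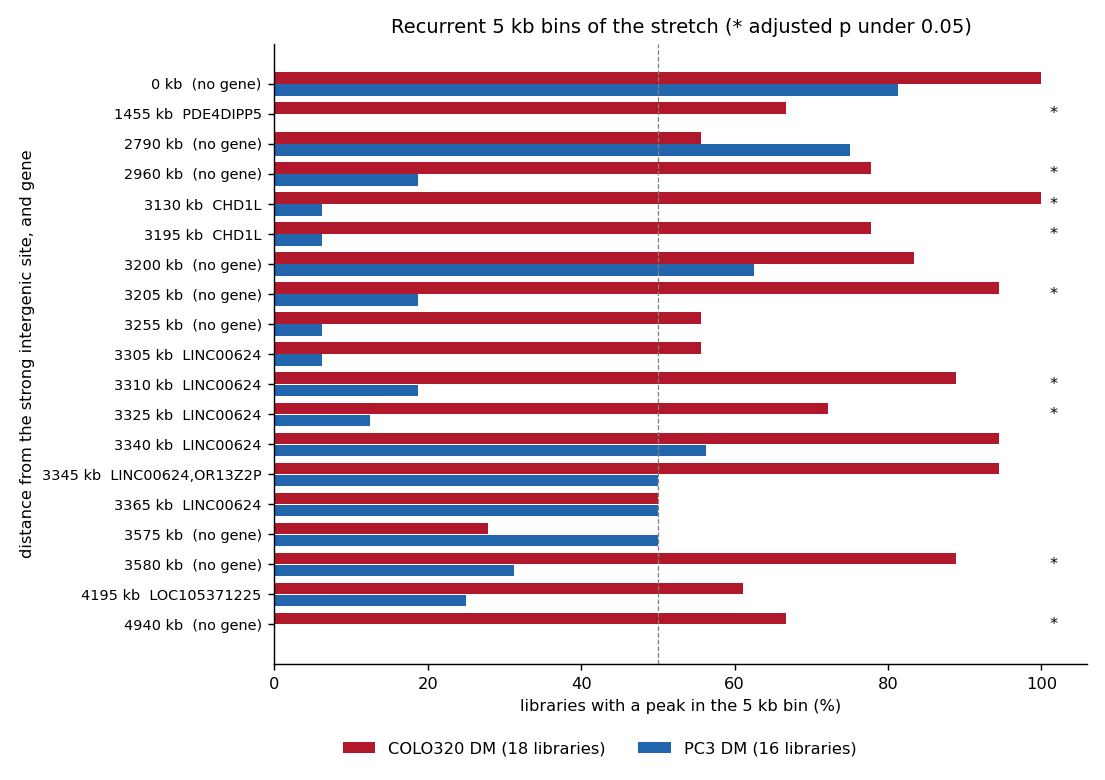
Percentage of libraries with a peak in each of the 19 recurrent bins of 5 kb, COLO320 DM above PC3 DM in each pair, ordered by distance in kb from the strong intergenic site and labelled by gene. Stars mark the 9 bins called between the lines, and in all of these the COLO320 DM bar is the longer.

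Some recurrent sites were shared. chr1:146890001-146895000, 27156 bp from the nearest gene, had a peak in 10 COLO320 DM and 12 PC3 DM libraries (exact test, adjusted p = 0.621), with median folds of 7.32 and 7.53. chr1:147465001-147470000 in LINC00624 had 9 and 8. chr1:147675001-147680000, 4477 bp from ACP6, was recurrent in PC3 DM alone, in 8 libraries, with 5 in COLO320 DM (exact test, adjusted p = 0.621). No bin was called for PC3 DM, and the smallest p in that direction belonged to chr1:147055001-147060000, in 0 and 5 libraries (exact test, adjusted p = 0.174).

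The plasmids were compared with the vector of the same line, which was the study's control. The share of peaks in the stretch was 0.136% ± 0.0189 in the 15 perturbed and 0.137% ± 0.00928 in the 3 vector libraries of COLO320 DM (difference -0.00135 points, exact permutation test, two-sided, p = 0.903). In PC3 DM it was 0.0671% ± 0.0127 in 14 perturbed and 0.0657% ± 0.00907 in 2 vector libraries (difference 0.00137 points, exact permutation p = 0.858). The 2 differences did not differ from each other detectably (exact permutation within lines, two-sided, p = 0.852). Single plasmids differed from the vector by -0.0131 (PC3 DM ecSE7) to 0.0127 points (PC3 DM ecSE6), and none of the 10 passed (exact permutation, adjusted p = 1 each). With 3 against 3 libraries the smallest possible exact p is 0.1, so these comparisons could not pass.

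The PC3 DM plasmids ecSE6 and ecSE7 did not overlap each other. The shares were 0.0745%, 0.0796% and 0.0811% for ecSE6, and 0.0519% and 0.0534% for ecSE7, against 0.0593% and 0.0721% for the vector. All ecSE6 values lay above and all ecSE7 values below both vector values. The 2 plasmids were not tested against each other. Such separation was not particular to this pair. The ecSE7 values also lay below all of ecSE1 (from 0.0564%) and ecSE2 (from 0.0565%), but within the range of ecSEcombo (0.0479% to 0.0714%). The ecSE6 values lay above all of ecSEcombo and overlapped ecSE1 and ecSE2. Pairs of COLO320 DM groups were not compared in this way. The ecSE7 shares rest on only 13 and 6 peaks, so single peaks weigh heavily in this order. COLO320 DM ecSE1 was the most scattered group, at 0.0974%, 0.150% and 0.164%, the lowest being replicate 2 with 125213 peaks.

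By bins, no site of the stretch was called between perturbed and vector libraries. In COLO320 DM 43 bins and in PC3 DM 39 could be tested, 0 were called in either line or direction (Fisher's exact test, adjusted p = 1 for all), and 1 in each had an unadjusted p under 0.05. Over the genome 0% of bins were called in both lines. These tests had little reach: the smallest p that 15 against 3 COLO320 DM libraries allow is 0.00123, at which 923 bins would have to stand to pass the adjustment, and for 14 against 2 PC3 DM libraries it is 0.025 and 31124 bins (Fisher's exact test). The counts of 0 therefore say nothing of whether the groups differ. The CHD1L bin chr1:147230001-147235000 had a peak in all 3 libraries of each COLO320 DM plasmid and of the vector. The PDE4DIPP5 bin had 2 of 3 libraries for ecSE1 and ecSE2, 1 for ecSE3, 3 for ecSE4 and ecSEcombo and 1 for the vector.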

How the data were processed

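The data were 34 peak lists on hg38, 1 per library. The tools are MACS2 2.2.7.1, Bowtie2 2.3.5, bedtools, SAMtools and Trim Galore 0.6.6, listed per the submitters' processing notes without role or order. By the names of the deposited lists, the cutoff was an FDR of 0.001 and blacklisted regions were taken out. A control library, the handling of duplicates and of reads with several positions are not given in the sources used here. The authors' fold is a ratio of summit to local background within a library (1 was added to both in recovering fragments). The deposited -log10 p-value and -log10 q-value are also the authors'; peaks were ranked here by q-value, then fold.

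Read totals were not used, so depth is unknown and no counting interval is given. List length, 9385 to 125213 peaks, is given but does not measure depth. PC3 DM ecSEcombo replicate 1 had 102286 peaks and a lowest local background on chromosome 1 of 0.249 fragments. COLO320 DM vector replicate 2 had 9385 peaks and a lowest background of 0.629. Whole fragments and backgrounds were recovered from fold and p-value for 100% of stretch peaks within 0.0005 in -log10 p. Nothing says that replicates were separate cultures, so p-values may measure technical spread. No stretch list was identical to another.

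Groups came from the titles. Bins of 5 kb and protein-coding genes with 2 kb flanks were tested over the whole genome by Fisher's exact test with Benjamini-Hochberg adjustment, where at least 3 libraries had and 3 lacked a peak. Single values used permutation tests, exact below 10 libraries in a group and otherwise with 100000 resamples. Genes and promoters came from RefSeq on GRCh38.p14, whose gene table gives no strand or exons, so sites are placed by gene bounds alone. The scripts were tested on simulated data. Members and gene lists were chosen with earlier results of these data known. Named bins were the strong intergenic site, the 10 most recurrent and the 5 per direction with the smallest p; named genes were list genes recurrent in a line and called genes. 1 single-copy gene of 1q21.1 is not reported here. Other genes and bins, the runs of single-copy genes and the promoter windows were chosen after their values were seen. Software was scipy 1.17.1, pandas 2.3.3, matplotlib 3.10.9 and numpy 2.4.6 under Python 3.11.15.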

Additional observations from a re-analysis of the deposited data

How the results depend on the processing

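Alternatives were stricter q-values (1e-05 or less), lists of equal length, covered length, the stretch without its first Mb or without the strong intergenic site, other references, no combination, no lists of over 100000 peaks, vector libraries alone, other bins, overlaps and flanks, a replicate block, and each replicate left out; list densities without the long lists, the recurrent share without the site and windows of 100 kb with a gene were added after seeing the data, and the windows gave log2 density ratios of -0.48 in COLO320 DM and -1.705 in PC3 DM. The larger share in COLO320 DM passed in all but vector libraries alone (0.0715 points, exact permutation p = 0.1), and without single replicates lay at 0.0671 to 0.0714 points. The COLO320 DM density ratio passed except in lists of equal length (-0.043, permutation p = 0.503). Bins of 10 kb gave 3 calls between lines, other settings 7 to 13, single replicates left out 9 or 10. The gene count was 1 with stricter q-values, equal lists or 500 bp (CHD1L each time), and 0 or 1 with a replicate left out (PRKAB2). The PC3 DM percentile difference, not called, was -1.61 points without the site. The perturbed-minus-vector share, not called in either line, changed sign in COLO320 DM with equal lists (0.0156 points), covered length (0.000223), no combination (0.00103) and no long lists (0.00139), and without single replicates ran from -0.00629 to 0.00292 in COLO320 DM and from -0.00504 to 0.00778 in PC3 DM. The difference in the share of libraries at bin 146890001, not called, turned to 0.00694 in equal lists. Same-numbered replicates of different groups did not deviate together in their peaks in the stretch (median correlation 0.12 in COLO320 DM, from -0.70 to 0.68, and -0.047 in PC3 DM, from -0.345 to 0.34), so numbers were not taken as pairs. With the replicate block the perturbed-minus-vector share was -0.00135 points in COLO320 DM (exact permutation p = 0.898) and 0.0004645 in PC3 DM (exact permutation p = 0.917), and 0 bins were called in either line. Bins and genes on vector libraries alone could not be tested, since 3 against 2 libraries never leave 3 with and 3 without a peak.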
